A study of Mus musculus with 2 samples.

Results

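Gamma-delta T cells were taken from single-cell RNA sequencing of leukocytes of the pancreatic islets as barcodes with at least 2 UMIs of Trdc, the constant gene of the T-cell receptor delta chain. The barcodes also held at least 1 UMI of Cd3d, Cd3e or Cd3g and none of Ncr1, Cd4 or Cd8b1, and at most 1 UMI of Cd79a, C1qa and Lyz2 together. A UMI is a molecular tag that marks 1 captured transcript. The gate held 325 of 22466 barcodes that had at least 500 genes and at most 10% mitochondrial UMIs. The members were 183 of 12252 barcodes (1.49%, 95% exact Clopper-Pearson interval 1.29 to 1.72) in the WT NOD library. They were 142 of 10214 barcodes (1.39%, 1.17 to 1.64) in the library labelled NOD.Cxcl16-/-. The difference of -0.103 percentage points had an interval of -0.415 to 0.214, which spans 0.

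Both libraries came from females of the NOD strain, which develops autoimmune diabetes, at 12 weeks of age. Islets were picked by hand, dispersed without enzymes, and live CD45+CD31- cells were sorted, so the cells carry no enrichment for gamma-delta T cells. The 2 groups were NOD mice labelled wild type and mice labelled NOD.Cxcl16-/-, a knockout of the chemokine CXCL16, which is the ligand of the receptor CXCR6. Each group had 1 library, the number of animals is not stated in the labels, and no difference has a replicate check, so no test was made and all intervals are at the 95% level and cover counting error only.

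Cxcl16 transcripts were present in both libraries, at 104 CPM (a gene's UMIs scaled to the total of the cells summed) over the kept barcodes of WT NOD and 102 CPM in the other. The 3' tags counted may lie outside the deleted part, which the sources used here do not describe. For this reason the text speaks of the library labelled NOD.Cxcl16-/- and ascribes none of its differences to the genotype. The members held 995824 and 800920 UMIs, at medians of 4572 and 4459.5 UMIs per cell. Of the barcode sequences, 45 occurred in both libraries, none of them as a member in both.

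Gamma-delta T cells recognise ligands through a receptor of a gamma and a delta chain and leave the thymus with much of their effector fate already set. One branch makes interleukin-17 and responds to interleukin-23 and interleukin-1, and a large part of it is made of cells with the Vgamma6 and Vdelta1 chains, which arise in the fetal thymus and settle in tissues. The other branch makes interferon-gamma under T-bet and Eomes, shares cytotoxic and chemokine genes with natural killer (NK) and CD8 T cells, and is marked by CD27.

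The receptor segments that separated the members are shown first, as transcripts of the GENCODE release M21 reference (build GRCm38), which is not the NOD strain's own sequence. Trdv4 encodes the Vdelta1 chain and lies at chr14:54074905-54075515 on the plus strand, upstream of Trdc at chr14:54142851-54148868. Tcrg-V6, Trgv2 and Tcrg-V1 are gamma variable genes at chr13:19190356-19190929, chr13:19336573-19337167 and chr13:19339989-19340454, on the plus, minus and plus strands. The last 60 bases of each annotated variable transcript are given 5′ to 3′, with the cysteine codon near the end of the variable domain in capitals as a common landmark. They are shown to identify the segments on which the classes described further on differed.
Trdv4: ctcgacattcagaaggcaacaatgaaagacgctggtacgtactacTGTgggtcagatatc
Tcrg-V6: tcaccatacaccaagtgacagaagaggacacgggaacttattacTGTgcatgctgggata
Trgv2: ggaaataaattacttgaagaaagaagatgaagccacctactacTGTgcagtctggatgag
Tcrg-V1: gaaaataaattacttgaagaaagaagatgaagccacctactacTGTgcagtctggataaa
Trgv2 and Tcrg-V1 were 94.9% identical over 374 aligned bases, so the split of reads between them is uncertain and they are read together. Tcrg-V6 aligned with Trgv2 over 40 bases only, at 70.0% identity.

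The constant genes Tcrg-C1 (chr13:19214103-19217024, plus strand), Tcrg-C2 (chr13:19304649-19307551, minus strand) and Tcrg-C4 (chr13:19344558-19352756, plus strand) are shown by their first 60 bases, with the bases that differ from Tcrg-C1 in capitals.
Tcrg-C1: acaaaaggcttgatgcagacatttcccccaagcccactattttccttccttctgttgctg
Tcrg-C2: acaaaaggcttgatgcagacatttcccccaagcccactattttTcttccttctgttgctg
Tcrg-C4: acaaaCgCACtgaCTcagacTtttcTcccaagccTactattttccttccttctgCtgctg
Tcrg-C2 differed at 1 of these bases and Tcrg-C4 at 10. Over the whole transcripts Tcrg-C1 and Tcrg-C2 were 94.5% identical and Tcrg-C1 and Tcrg-C4 64.7%, so reads of the first pair can be confused and those of Tcrg-C4 less so.

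The label was checked on genes the gate did not use. A UMI of any gamma constant gene was found in 129 of 183 members (70.5%) of WT NOD and in 109 of 142 (76.8%) of the other library. Among CD8 T cells the shares were 32.9% and 38.4%, and among CD4 T cells 5.09% and 4.26%. Trac, the constant gene of the alpha chain, stood at 139 and 84.9 CPM in the members, against 616 and 598 CPM in CD8 T cells and 707 and 764 CPM in CD4 T cells. A Trac UMI was found in 60 of 183 and in 34 of 142 members. The alpha-beta T list (Trac, Trbc1, Trbc2 and Cd8a) summed to 1566.5 and 1502.0 CPM in the members, with all 4 genes detected in each library. The members thus carried gamma-delta receptor transcripts together with some alpha-beta receptor transcripts. Results were also taken without the members that held a Trac UMI, as given at the end. The part of the other alpha-beta receptor transcripts was not tested. Trdc itself, which chose the cells, ranged from 2 to 29 UMIs per cell (median 5) and from 2 to 32 (median 6). Cells just inside the limit, at 2 UMIs, numbered 42 and 12, and those just outside, at 1 UMI, 73 and 30. Trac was at 127.6 and 123.8 CPM inside and at 387 and 397 CPM outside. Tcrg-C1 was at 57.2 CPM inside and 29.4 CPM outside in WT NOD, but at 20.6 and 34.5 CPM in the other library. Cd163l1 was at 114 and 4.90 CPM in WT NOD, but at 0 and 25.9 CPM in the other library. At the limit both genes were thus higher inside in WT NOD and lower inside in the library labelled NOD.Cxcl16-/-. In the latter the inside values came from 12 cells and a few UMIs at most, so no difference between the libraries is read from them. Trdv4 was at 30.8 and 34.3 CPM in WT NOD and at 20.6 and 17.3 CPM in the other library. Cells with 3 or more Trdc UMIs held Tcrg-C1 at 129 and 202 CPM and Cd163l1 at 249 and 534 CPM.

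Most removals came from Ncr1, which marks NK cells: 140 and 125 barcodes with Trdc and Cd3 UMIs were left out for it, and 35.9% of all Ncr1 barcodes in WT NOD held at least 2 Trdc UMIs. In the library labelled NOD.Cxcl16-/- this share was 39.0%. Gamma-delta T cells that express Ncr1 are thus outside the gate, as are any with a Cd8b1 or Cd4 UMI. A Cd3 UMI was found in 354 of 418 and in 304 of 349 Ncr1 barcodes. NK cells in which no Ncr1 UMI was captured could therefore pass the gate, and their number among the members was not tested. The NK cells used for comparison, which held no Cd3 UMI, were 58 and 38 barcodes.

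Genes that were higher in the gamma-delta T cells than in NK, CD8 T and CD4 T cells were led by Cd163l1, Tcrg-C1 and Il17a. Cd163l1, a scavenger receptor gene that marks interleukin-17-producing gamma-delta T cells, was measured at 218 CPM in WT NOD and 502 CPM in the other library. In NK, CD8 T and CD4 T cells it did not exceed 0.828 CPM in either library. Tcrg-C1 stood at 112 and 191 CPM, against at most 8.11 CPM in the other gates, and Il17a, the gene of interleukin-17A, at 62.3 and 71.2 CPM, against at most 1.78 CPM. Trdv4 was at 135 and 241 CPM, against at most 35.5 CPM. These levels are sums over all members. A Cd163l1 UMI was found in 34 of 183 and 50 of 142 members, a Tcrg-C1 UMI in 60 and 58 and an Il17a UMI in 13 and 14. Each of the 3 genes was thus detected in a minority of the members.

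Il1r1, the receptor of interleukin-1, was at 62.3 and 167 CPM and at most 14.2 CPM in the other 3 gates. Il7r, the receptor of the survival cytokine interleukin-7, was at 554 and 639 CPM, against 145 and 155 CPM in NK, 96.2 and 133 CPM in CD8 T and 170 and 197 CPM in CD4 T cells. Zbtb16, which encodes the innate-like lymphocyte factor PLZF, was at 60.2 and 94.9 CPM, above 21.3 and 12.4 CPM in NK cells and under 3 CPM in both alpha-beta T cell gates. Of 2789 genes with at least 50 CPM in the members of both libraries, 15 (0.538%) were at least 2-fold higher than in the highest of the 3 gates in both libraries, with 10 CPM added. One of them was Trdc, which the gate used, and without the gate genes the count was 14 of 2785 (0.503%). Among the 20 genes ranked highest were also Ltb4r1, Blk, Tcrg-V1, Actn2, Abi3bp, Serpinb1a, Pxdc1, Airn, Tcrg-C4, Selenop, Tmem64, Emb and Rcbtb2. Blk, a Src-family kinase gene, and Serpinb1a were not confined to the members, since B cells held Blk at 137 and 132 CPM and Serpinb1a at 201 and 162 CPM.

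**Figure D1:**
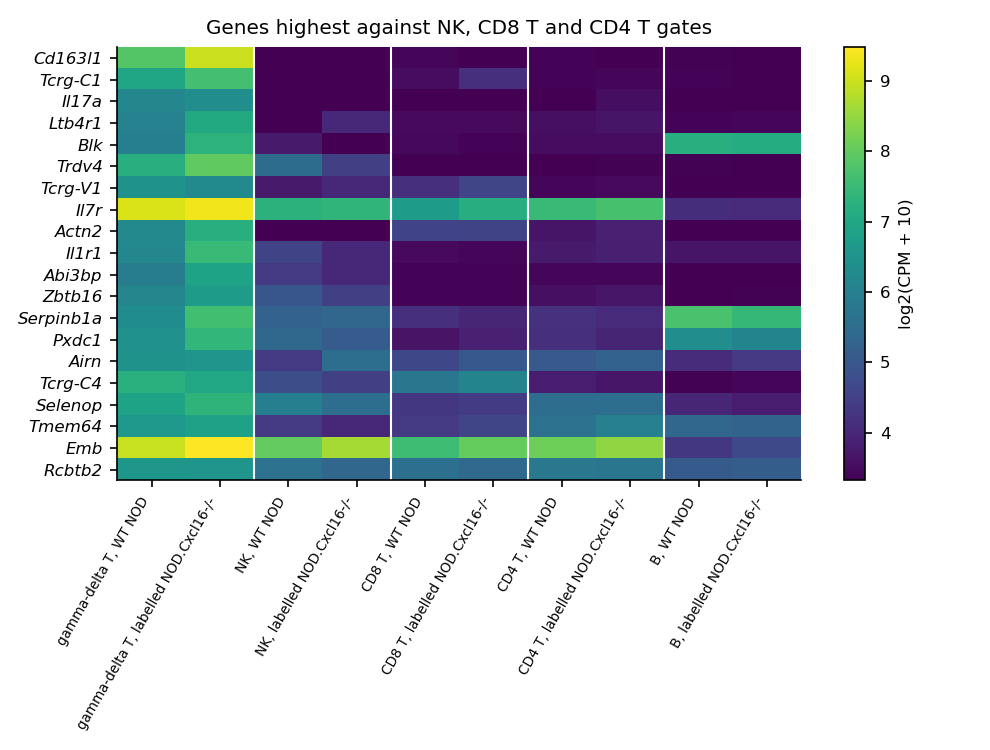
Levels of the 20 genes that ranked highest in gamma-delta T cells against NK, CD8 T and CD4 T cells, as log2(CPM + 10) of the summed UMIs, for each cell gate (columns) in both libraries. Cd163l1, Il17a and Tcrg-C1 are bright in the gamma-delta T columns and near the lowest colour elsewhere, while Blk and Serpinb1a are bright in B cells too. Cd163l1, Il17a and Tcrg-C1 were each detected in a minority of the members.

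The members were divided by 2 sets of genes. Cells with at least 2 UMIs of 11 type 17 genes (among them Il23r, Il17re, Il1r1, Ccr6, Cd163l1, 5830411N06Rik, Blk, Sox13, Il17a and Il17f) and fewer than 2 of 11 type 1 genes (Tbx21, Eomes, Ifng, Klrd1, Klrc1, Nkg7, Gzma, Gzmb, Gzmk, Prf1 and Xcl1) are called the type 17 class, and the reverse the type 1 class. These genes fixed the classes, so their levels in them are descriptions. The type 17 class had 39 and 52 cells, the type 1 class 117 and 65, cells with both 5 and 9, and cells with neither 22 and 16. Cells with both programmes are named only for passing both limits, which were not scaled to the UMIs of a cell. For the type 17 genes few cells lay near the limit: in WT NOD 136 members had 0 UMIs of the type 17 genes, 3 had 1, 3 had 2 and 41 had 3 or more. In the library labelled NOD.Cxcl16-/- 77 had 0, 4 had 1, none had 2 and 61 had 3 or more. For the type 1 genes more cells lay near it: in WT NOD 43 members had 0 UMIs, 18 had 1, 10 had 2 and 112 had 3 or more. In the other library 47 had 0, 21 had 1, 8 had 2 and 66 had 3 or more. The type 17 side was thus cut more cleanly than the type 1 side. Blk and Ccr6 are shared with B cells, of which 35.1% and 38.1% held at least 2 UMIs of the type 17 genes as used in the split. Without Blk and Ccr6 at least 2 UMIs of the type 17 genes were found in 0.319% and 0.392% of B cells, in 0.781% and 0.722% of CD8 T cells, in 1.46% and 1.75% of CD4 T cells and in 3.45% and 2.63% of NK cells. The type 1 genes are shared with other lymphocytes: at least 2 UMIs of them were found in 92.7% and 92.9% of CD8 T cells, 93.1% and 97.4% of NK cells, 47.04% and 47.4% of CD4 T cells and 3.45% and 2.97% of B cells.

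**Figure D2:**
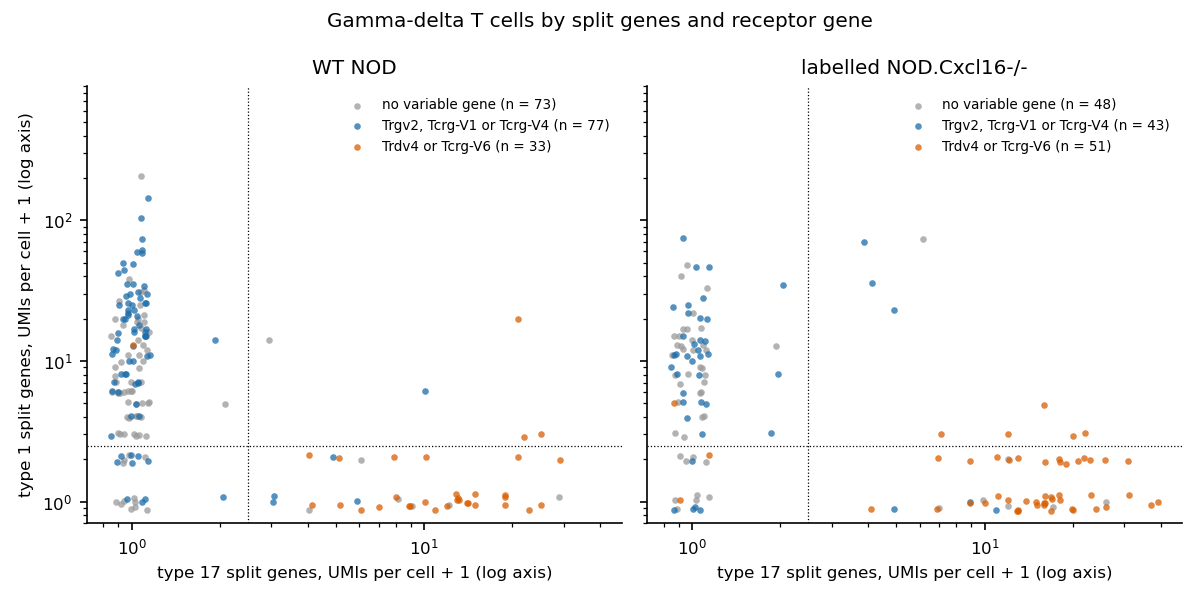
UMIs of the type 17 split genes (horizontal) and of the type 1 split genes (vertical) in each gamma-delta T cell, both plus 1 on log axes with a small jitter, for WT NOD (183 cells) and the library labelled NOD.Cxcl16-/- (142 cells). Colours give the variable gene found in the cell, dotted lines the limit of 2 UMIs, and cells with Trdv4 or Tcrg-V6 lie almost all to the right of it.

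The receptor genes, which the split did not use, followed the classes. Trdv4 was measured at 689 CPM (570 to 825, exact Poisson interval) in the type 17 class of WT NOD and at 696 CPM (594 to 809) in that of the other library. In the type 1 class it had 1 UMI in 117 cells and 0 UMIs in 65 cells. Tcrg-V6 stood at 140 and 104 CPM in the type 17 class and at 0 and 3.01 CPM in the type 1 class. Tcrg-C1, the constant gene nearest to Tcrg-V6 of those shown, was at 438 and 514 CPM against 40.4 and 48.1 CPM. The intervals of the classes did not overlap for these 3 genes in either library.

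The other segments went the other way or did not differ. Trgv2 was at 23.4 and 37.3 CPM in the type 17 class against 139 and 105 CPM in the type 1 class. Tcrg-V1 was at 40.9 and 41.4 CPM against 89.5 and 93.2 CPM, from 7 and 10 UMIs in the type 17 class, with overlapping intervals. Tcrg-C2 was at 70.1 and 82.8 CPM against 110 and 144 CPM, with overlapping intervals. Trgv2 and Tcrg-C2 were also present in CD8 T cells, so they mark neither class by themselves.

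Taken from the receptor side, 33 members of WT NOD and 51 of the other library held a Trdv4 or Tcrg-V6 UMI. Of these, 32 of 33 (97.0%, 84.2 to 99.9) and 48 of 51 (94.1%, 83.8 to 98.8) had type 17 genes. Of the members with Trgv2, Tcrg-V1 or Tcrg-V4 and neither of the first pair, 5 of 77 (6.49%, 2.14 to 14.5) and 6 of 43 (14.0%, 5.30 to 27.9) had type 17 genes. Type 1 genes were found in 63 of 77 (81.8%) and 35 of 43 (81.4%) of them. Trdv4 and Tcrg-V6 UMIs occurred in the same cell in 16 of the 16 cells with Tcrg-V6 in WT NOD and in 19 of 20 in the other library. No variable gene of these 5 was found in 73 and 48 members, at medians of 4006 and 4435.5 UMIs.

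**Figure D3:**
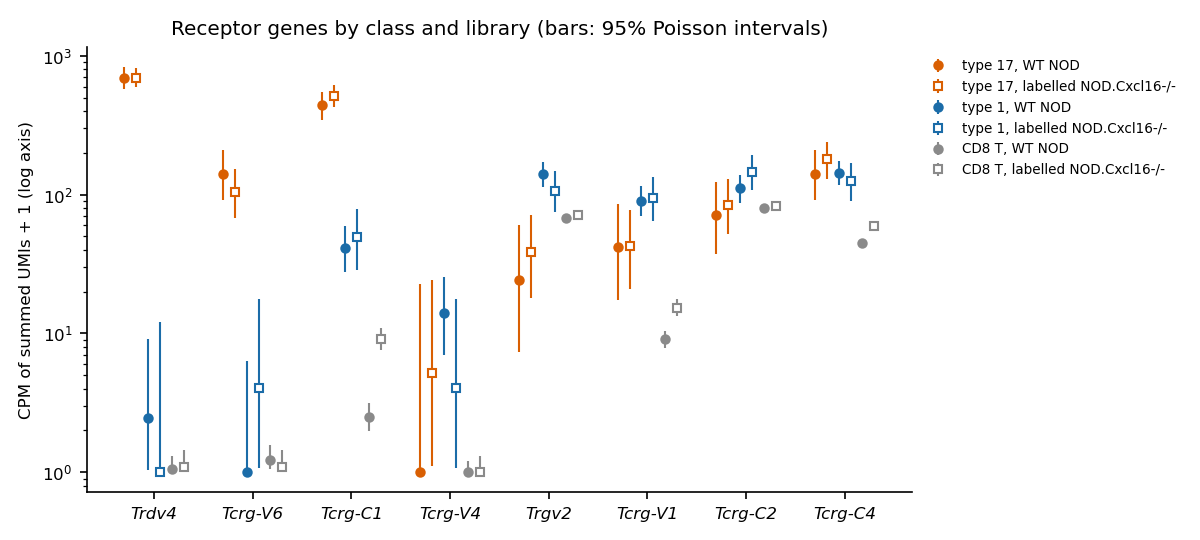
CPM of the receptor genes plus 1, on a log axis, in the type 17 class, the type 1 class and CD8 T cells of each library, with 95% exact Poisson intervals as bars. Trdv4, Tcrg-V6 and Tcrg-C1 separate the type 17 class from the others in both libraries, while Tcrg-C4 does not separate the 2 classes.

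Genes outside the split lists were ranked between the classes. Before the split genes were set aside, of 2559 genes with at least 50 CPM in the type 17 class of both libraries, 165 (6.45%) were at least 2-fold higher there than in the type 1 class in both libraries, and of 2675 in the type 1 class 150 (5.61%) were higher there. Without the genes of the split and the gate, the counts were 157 of 2547 (6.16%) and 141 of 2662 (5.30%). After Trdv4 the type 17 class was led by Abi3bp, at 269 and 360 CPM against 0 in the type 1 class of both libraries, Ltb4r1, a receptor of the lipid leukotriene B4, at 286 and 393 against 4.33 and 6.01 CPM, and Tmem176a at 765 and 990 against 28.9 and 39.1 CPM. Pxdc1, Tmem176b, Actn2, Ly6g5b, Ppp1r14c and Aqp3 completed the 10. Aqp3, a water and glycerol channel gene, was at 164 and 108 CPM against 2.89 and 0 CPM.

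The type 1 class was led by the chemokine gene Ccl5, at 6287 and 6481 CPM against 111 and 49.7 CPM in the type 17 class. Klra1, an NK-cell lectin-like receptor gene, was at 469 and 331 CPM against 0 in both libraries, and Ctla2a at 791 and 722 against 23.4 and 0 CPM. Prkch, a protein kinase C gene, was at 463 and 608 CPM against 17.5 and 16.6 CPM, but also at 742 and 603 CPM in the cells with neither programme, so it does not mark the type 1 class alone. Gimap7, Gm2682, Klre1, Ctla2b, Fcer1g and Il12rb2 completed the 10. Fcer1g, the Fc receptor gamma chain used by innate receptors, was at 380 and 544 CPM against 29.2 and 0 CPM.

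Fate factors and cytokines described the classes from the split side. Sox13, a factor of the interleukin-17 branch, was at 52.6 and 78.7 CPM in the type 17 class and at 0 in the type 1 class of both libraries. Maf was not used in the split and was at 572 and 480 CPM against 79.4 and 48.1 CPM. Rora was at 648 and 857 CPM against 150 and 210 CPM. Eomes was at 0 in the type 17 class of both libraries and at 63.5 and 57.1 CPM in the type 1 class.

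Il17a was found in 10 of 39 and 12 of 52 type 17 cells, at 263 and 215 CPM, and in no cell of the type 1 class. After thinning each cell to 2000 UMIs, the shares were 17.9% and 19.2%. Il17f and Il22 were at 0 and 16.6 CPM, and at 29.2 and 49.7 CPM, in the type 17 class. Ifng was at 128 and 99.2 CPM in the type 1 class and 0 in the type 17 class of both libraries, and Xcl1, whose chemokine draws dendritic cells, at 1059 and 917 CPM against 0. Cd27, the marker of the interferon-gamma branch, was at 156 and 165 CPM in the type 1 class and 11.7 and 4.14 CPM in the type 17 class. Il18r1 was at 555 and 551 CPM in the type 17 class and at 211 and 358 CPM in the type 1 class, so its order held in both libraries. Sox13, Eomes, Il17a, Il17f, Ifng and Xcl1 were split genes, so the split itself kept them low in the opposite class. Maf, Rora, Il22, Cd27 and Il18r1 were not used in the split.

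Cells with neither programme had the highest levels of tissue-exit genes among the 3 classes named here. They held S1pr1, the receptor for tissue exit, at 342 and 603 CPM, against 64.2 and 16.6 CPM in the type 17 class. Klf2, which promotes S1pr1, was at 1083 and 1126 CPM against 345 and 460 CPM, and Lef1, a factor of naive T cells, at 377 and 349 CPM against 40.9 and 70.4 CPM. The type 1 class lay between for these 3 genes in both libraries. Of the cells with neither, 10 of 22 and 7 of 16 held a gamma constant UMI. The shares were 84.6% and 90.4% in the type 17 class and 70.1% and 70.8% in the type 1 class. The alpha-beta T list summed to 2390.5 and 2886.8 CPM in the cells with neither, against 3204 and 3455 CPM in CD4 T cells. A Trac UMI was found in 4 of 22 and 4 of 16 of the cells with neither. The part of alpha-beta T cells among them was not tested.

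Cxcr6, the receptor of CXCL16, was higher in the type 17 class than elsewhere. It stood at 987 CPM (844 to 1148) in WT NOD and at 1437 CPM (1290 to 1597) in the other library. The few cells with both programmes also held Cxcr6 UMIs and are left out of the orders that follow. In WT NOD CD8 T cells followed at 216 CPM, then CD4 T cells at 155, the type 1 class at 144, the cells with neither at 141, NK cells at 78.0 and B cells at 1.51 CPM. In the other library the order was the cells with neither at 286 CPM, CD8 T cells at 282, the type 1 class at 195, CD4 T cells at 171, NK cells at 111 and B cells at 2.09 CPM. The type 17 class and B cells kept their places at the 2 ends, NK cells stayed next to B cells and the type 1 class in the middle, while the cells with neither, CD8 T cells and CD4 T cells changed places. A Cxcr6 UMI was found in 37 of 39 and 52 of 52 cells of the type 17 class, against 41 of 117 and 26 of 65 of the type 1 class. At 2000 UMIs per cell the shares were 82.1% and 92.3% against 18.5% and 22.2%, and in B cells 0.206% and 0.576%. Over all members Cxcr6 was at 306 and 588 CPM, a log2 ratio of 0.94 (0.73 to 1.15) on log2(CPM + 1). Within the type 17 class the ratio was 0.54 (0.27 to 0.82) and within the type 1 class 0.44 (-0.04 to 0.90), so the ratio over all members was larger than in either class.

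**Figure D4:**
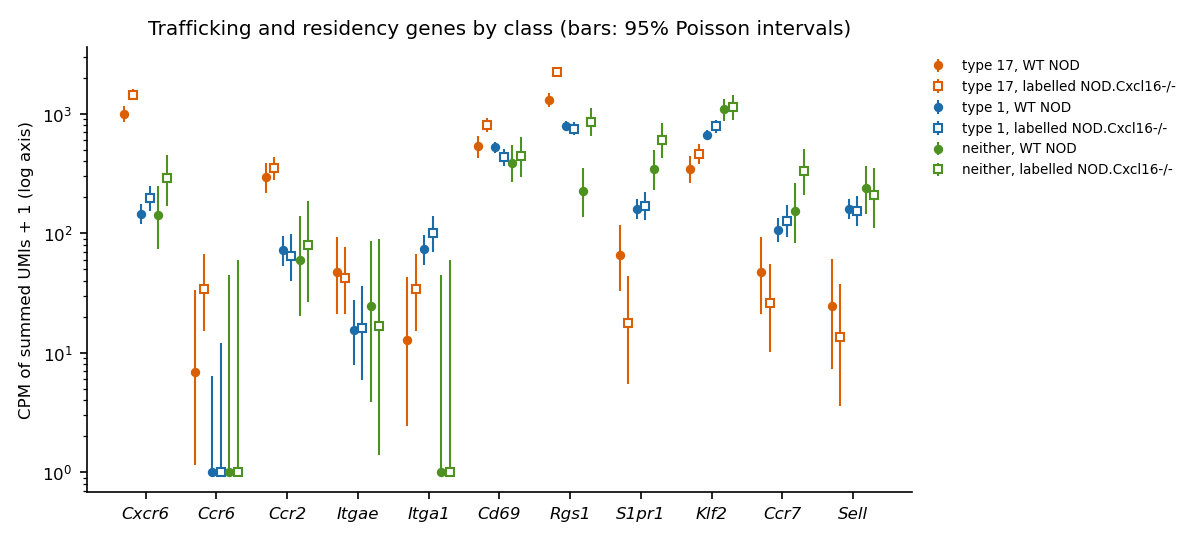
CPM plus 1, on a log axis, of Cxcr6 and of other trafficking and residency genes in the type 17 class, the type 1 class and the cells with neither programme, with 95% exact Poisson intervals, for each library. Cxcr6 and Ccr2 are highest in the type 17 class, and S1pr1, Klf2 and Ccr7 in the cells with neither.

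Several other trafficking genes differed between the classes in the same direction in both libraries. Ccr2, a receptor for inflammatory chemokines, was at 292 and 348 CPM in the type 17 class and at 70.7 and 63.2 CPM in the type 1 class. Rgs1, which dampens chemokine signals, was at 1297 and 2245 CPM against 794 and 749 CPM. Itga1, an integrin of tissue-resident cells, was at 11.7 and 33.1 CPM in the type 17 class and 72.2 and 99.2 CPM in the type 1 class. Itgae was at 46.7 and 41.4 CPM against 14.4 and 15.04 CPM, from 8 and 10 UMIs against 10 and 5, with overlapping intervals. Ccr6, a receptor often ascribed to interleukin-17-producing cells, had 1 UMI in the type 17 class of WT NOD and 8 in that of the other library. Other genes of the list did not separate the classes in both libraries. Cd69, an early activation and tissue-retention gene, was at 531.5 and 803.5 CPM in the type 17 class against 522.5 and 430.1 CPM in the type 1 class. Cxcr4, the receptor of CXCL12, was at 81.8 and 49.7 CPM against 86.6 and 87.2 CPM, and Prdm1, the gene of the factor Blimp-1, at 11.7 and 12.4 CPM against 13.0 and 6.01 CPM, which is the opposite order in the 2 libraries and rests on 2 to 9 UMIs.

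The 2 libraries differed in the mix of the classes. Members with type 17 genes were 44 of 183 (24.0%, 18.1 to 30.9) in WT NOD and 61 of 142 (43.0%, 34.7 to 51.5) in the other library. The shares lay 18.9 percentage points apart (8.60 to 28.9). As a share of kept barcodes they were 0.359% and 0.597%. The type 1 class was 63.9% and 45.8% of the members. With 1 library per group, differences between animals or preparations and the labelled genotype cannot be told apart.

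Between the libraries, 16 of 1551 genes with a mean of at least 100 CPM (1.03%) were at least 2-fold higher in the library labelled NOD.Cxcl16-/- and 5 (0.322%) at least 2-fold lower, at a median log2 ratio of 0.06 over these genes. Of all 14438 genes with a UMI, 13.9% were at least 2-fold higher and 14.4% at least 2-fold lower. The 24 genes of the type 17 list were all higher, 13 of them at least 2-fold, with a median of 1.05. Among all genes with a UMI 7907 of 14438 were higher, and among those with a mean of at least 100 CPM 936 of 1551. Of the 10 type 17 genes above 100 CPM, 5 were at least 2-fold higher. The type 1 list of 25 genes had a median of -0.31, with none at least 2-fold higher and 5 at least 2-fold lower. Within the type 17 class alone, the type 17 list had a median of 0.39, with 18 of 24 genes higher, 2 at least 2-fold higher and 0 at least 2-fold lower. Among all genes with a UMI in that class 5736 of 11287 were higher. In that class 20.6% of 11287 genes with a UMI were at least 2-fold higher and 20.1% at least 2-fold lower, and of the 1528 genes above 100 CPM 1.57% and 2.03%. Within the type 1 class the type 1 list had a median of 0.04, with 3 of 25 genes at least 2-fold higher and 5 lower. Of the 13024 genes with a UMI there, 12.4% and 21.3% passed, a share near that of the list, and of the 1530 genes above 100 CPM 0.915% and 0.784%. Of each list 11 genes fixed the classes, so a list has to be high within its own class in both libraries, and nothing is read from the smaller ratio there.

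**Figure D5:**
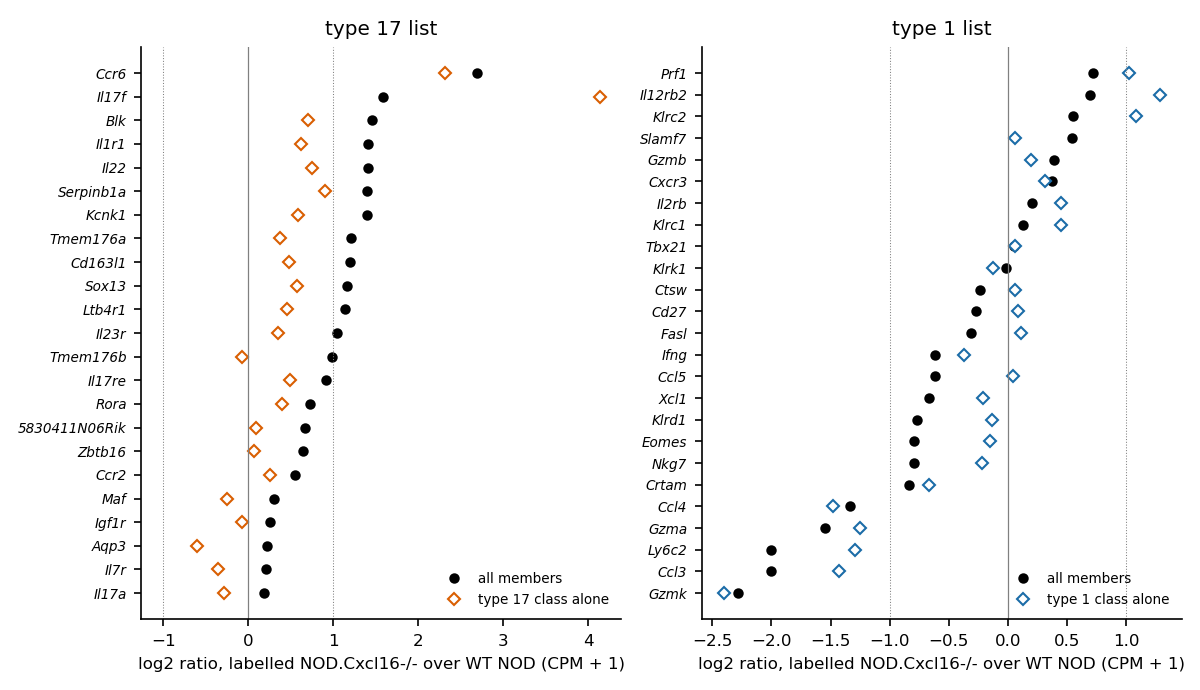
Log2 ratio of each gene shown of the type 17 list and of the type 1 list, library labelled NOD.Cxcl16-/- over WT NOD with 1 CPM added, over all members (black) and within the class alone (open). Most type 17 genes lie to the right of 0 in black, and the open symbols are a description, since genes of these lists fixed the classes.

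The 10 genes named as highest were Ins2, Ins1, Il1r2, Ccrl2, Blk, Il1r1, Serpinb1a, Samhd1, Tmem176a and Cd163l1. Blk was at 53.2 and 147 CPM (log2 ratio 1.45), Il1r1 at 62.3 and 167 CPM (1.41), Serpinb1a at 70.3 and 187 CPM (1.40) and Cd163l1 at 218 and 502 CPM. In the type 1 class Blk and Cd163l1 had no UMI in either library, and Serpinb1a was at 18.8 and 27.1 CPM. Samhd1, a dNTP hydrolase gene, was at 159 and 376 CPM (1.24) and was higher in the same library in both classes, at 234 and 439 CPM in the type 17 class and 137 and 268 CPM in the type 1 class, although 75 of the 301 UMIs in the library labelled NOD.Cxcl16-/- came from cells with both programmes.

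Several of the named genes rested on few cells. Of 1588 Ins1 and Ins2 UMIs in the library labelled NOD.Cxcl16-/-, 1496 came from 1 cell with 37466 UMIs. That cell held 6 UMIs of the type 17 split genes and 2 of the type 1 split genes, so it passed both limits. Without it the insulin genes were at 120.5 CPM there, against 96.0 CPM in its B cells. In WT NOD they were at 23.1 CPM in all members, from 23 UMIs, against 31.5 CPM in B cells, and at 12.3 CPM without the cell that held 11 of these UMIs. Il1r2 and Ccrl2 in that library came mostly from the 9 cells with both programmes, which held 116 of 124 and 91 of 128 UMIs. These cells had a median of 16678 UMIs, against 4459.5 over all members, and none of them was among the barcodes with the highest simulated-doublet scores. Of the 5 lower genes, Selenom had 164 of 182 UMIs in 1 cell and Gzma 168 of 234 in 1 cell. Gm10260, Gm10076 and the chemokine gene Ccl4 were spread over more cells, at 188 and 66.2, 487 and 216, and 150 and 58.7 CPM. Without the highest cell of each library the Selenom and Gzma log2 ratios were 0.65 and -0.34.

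Lists of other cell types and of handling were measured in the members. The NK list summed to 290 and 259 CPM in the type 1 class and to 5.84 and 12.4 CPM in the type 17 class. It summed to 1781 and 2500 CPM in NK cells and to 105.5 and 95.3 CPM in CD8 T cells. The B list summed to 181 and 53.8 CPM in the type 17 class, where 22 of 31 UMIs of WT NOD came from 1 cell. The plasma-cell list summed to 374 and 170 CPM in the same class, where 42 of 64 UMIs of WT NOD came from 1 cell, and to 132 and 161 CPM without the highest cell of each library. The macrophage list summed to 18.1 and 47.5 CPM over the members, with 4 of 5 genes at least 2-fold higher in the library labelled NOD.Cxcl16-/-, and the dendritic list to 15.1 and 54.9 CPM, with 4 of 5. Of all 14438 genes with a UMI, 13.9% were at least 2-fold higher. No gene of the macrophage and dendritic lists reached a mean of 100 CPM, so these counts rest on few UMIs. In the cells with both programmes these lists were at 85.5 and 152 CPM and at 42.7 and 220 CPM, and in the type 17 class at 17.5 and 29.0 CPM and at 11.7 and 0 CPM. The 10 handling genes (such as Fos and Hspa1a) summed to 4746 and 6202 CPM over the members and the interferon list to 762 and 1055 CPM, both higher in the library labelled NOD.Cxcl16-/-. Handling genes were lower there in NK (6637 and 5266.5 CPM), CD4 T (4418 and 4240.5) and B cells (4283 and 3820), but not in CD8 T cells (2744 and 2888). The interferon list was lower there in NK (752 and 458 CPM), CD4 T (851 and 725), CD8 T (618 and 532) and B cells (619 and 559). It was at 1402 and 1541 CPM in the type 17 class and at 608 and 626 CPM in the type 1 class. The part of these lists in the differences between libraries was not tested. The cell-cycle list summed to 646 and 503 CPM.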

How the data were processed

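Leukocytes of the islets were measured in 2 libraries, made, per the labels' protocols, with 10x Genomics 3' v3.1 kits. The deposited files hold raw UMI counts per gene and barcode, and per the submitters' processing notes the authors used Cell Ranger 7.0.1 and the build mm10. The annotation release and the counting of intronic reads are not given in the sources used here. Of 32285 gene IDs, 32158 occur in the GENCODE release M21 annotation.

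The members and lists were chosen with earlier results of these data known, and the text names every listed gene it uses plus the genes ranked highest by the stated rules: 10 each way between libraries past 2-fold at a mean of 100 CPM, 20 against the other gates, and 10 each way between the classes. NK cells were barcodes with Ncr1 and no Cd3 UMI, CD8 T and CD4 T cells those with Cd8b1 or Cd4 and a Cd3 UMI but no Trdc, and B cells those with at least 2 Cd79a UMIs. UMIs were summed per cell set and library and scaled to CPM. Each ratio divides the labelled NOD.Cxcl16-/- value by that of WT NOD with 1 CPM added to both, and 10 CPM added between cell sets. With 1 library per group there are no replicates and no p-values. Intervals are exact Poisson, Clopper-Pearson, exact binomial for ratios and Newcombe for differences of shares. Shares of cells with a UMI were also taken after thinning to 2000 UMIs, which left out 13 and 4 members. Doublets were kept and removed in an alternative, by a re-implemented simulated-doublet score, which took 1201 and 835 barcodes, 9 and 4 of them members. The values of 1 listed gene are not reported here, though it stays in the list counts and the split. Scripts were tested on simulated data. Python 3.11.15, NumPy 2.4.6, SciPy 1.17.1, scikit-learn 1.9.0, Biopython 1.88 and edgeR 4.0.16 (for TMM factors) were used.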

Additional observations from a re-analysis of the deposited data

How the results depend on the processing

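Of 18 alternatives, 4 (leaving out the insulin-rich cell or the cells with both programmes, and each class alone) were chosen after seeing the data. The number of genes at least 2-fold higher was 28 with a gamma constant UMI required, 26 without the highest doublet scores and 2005 with no minimum level, against 16. The number at least 2-fold lower was 8 with a Trdc minimum of 3 UMIs, 8 with Trac at 0, 3 without members over 2 median UMIs, 12 after thinning to 2000 UMIs, 8 with TMM scaling, 2084 with no minimum level, 9 without cells of both programmes, 31 in the type 17 class alone and 12 in the type 1 class alone, against 5. The type 17 list median was 0.39 in the type 17 class alone, and the Cxcr6 log2 ratio was 1.19 without cells of both programmes, 0.54 in the type 17 class and 0.44 in the type 1 class. The other values of these results stayed inside the counting interval of the main value or within 1.5 times the count, and the difference in the share with type 17 genes ran from 17.2 to 22.7 percentage points. The member share difference changed sign under 4 alternatives and its interval spanned 0 except at a Trdc minimum of 1 UMI, where it was -0.406 points (-0.761 to -0.046). Of 786 values of the other named results, 707 stayed inside the counting interval of the main value and 69 lay outside it. Another 10 reversed the sign of a ratio past 2-fold. Among those outside, Samhd1 went from 1.24 to 0.56 after thinning. Without cells of both programmes Ccrl2 went from 1.6 to 0.11 and Cd163l1 from 1.2 to 1.54. The reversed values were as follows. Il1r2 was at -2.58 without members over 2 median UMIs and -1.77 without cells of both programmes, Selenom at 1.29 and 1.18 without members over 2 median UMIs and after thinning, and Gzma at 1.01 with Trac at 0 and 0.14 without the highest doublet scores. Sox13 was at -0.16 and Ccl3 at 0.014 after thinning, and Il22 at -0.13 with Trac at 0 and -1.16 after thinning. Removing the highest doublet scores, Trac-positive cells or deep cells removes cells, and for the other changes the cause was not tested. No paired analysis was possible because each group has 1 library. Depth limits the values of the small classes, at 22 and 16 cells with neither programme and 5 and 9 with both.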
